A study of Drosophila melanogaster with 2 samples.

Results

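The 9 genes CG14100, Ugalt, CenG1A, CG1888, Art3, px, PNPase, amon and Pdrg1 were examined here, out of 13945 protein-coding genes on the 6 chromosome arms that held peaks. They were selected on the deposited peak signal, as genes among those with the highest values at a protein-coding promoter in schlank ChIP-seq of Drosophila melanogaster embryos. Every peak was taken whose summit lay inside the span of one of these genes or within 2000 bp of one of its transcription start sites (TSSs). Because signal chose the genes, it is described here with no test. Of all protein-coding genes, 1776 (12.7%) had a thresholded summit within 500 bp of an own TSS, as did 9 of the 9 by their choice.

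Schlank was mapped in whole embryos of mixed sex aged 0 to 24 h, from a transgenic line that stably expresses the protein with GFP at its C terminus. The 2 samples are biological replicates 1 and 2 of this single group, so no condition, stage or tissue was compared with another. Whole embryos mix all tissues, and no source used here gives the copies of the tagged gene, the promoter that drives it or how many embryos were pooled. The free text of both libraries calls them input controls, whereas their antibody field gives schlank and other experiments are given as their controls, so they are treated here as schlank ChIP. The files hold 4 peak lists, namely a list of 30000 candidates for each replicate, one of 30000 for both replicates pooled, and a thresholded set of 2790. Those 2790 were found in the pooled list with the same summit and signal, so the thresholded and pooled values of a peak are the same measurement. Read depth is unknown, because the lists hold no read counts.

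In ChIP-seq, chromatin is cut into fragments and those bound to the protein of interest are captured and sequenced, so that a peak marks where the protein, or something it is attached to, sat on DNA. The promoter is the stretch around the TSS where the transcription machinery assembles, and sites for regulatory proteins often lie just upstream of it. Schlank is the fly ceramide synthase, an enzyme of sphingolipid synthesis in the membrane of the endoplasmic reticulum and nuclear envelope. It also carries a homeodomain, a fold that in other proteins binds DNA, and it has been studied as a regulator of lipid metabolism genes in Drosophila.

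The genes have varied roles. Ugalt encodes a transporter that carries UDP-galactose into the Golgi for glycosylation, and CenG1A a GTPase-activating protein for Arf, the small GTPases that shape membrane traffic. The enzyme encoded by Art3 belongs to the protein arginine methyltransferases, and the mammalian counterpart methylates a ribosomal protein. The plexus gene, px, restricts where veins form in the wing. PNPase is polynucleotide phosphorylase, an exoribonuclease of mitochondrial RNA decay. In neuroendocrine cells, the proprotein convertase encoded by amon (amontillado) cuts neuropeptide precursors into active peptides. Pdrg1 encodes a relative of the subunits of prefoldin, a chaperone of newly made proteins. CG14100 and CG1888 are annotated by RefSeq as uncharacterized proteins.

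The sequences under 5 of the strongest summits are shown because the matches described further below can be read in them directly. They are from the Release 6 assembly (dm6), 5′ to 3′ on the strand of the gene, and the summit of each follows its first 100 bases. The stretches reach 100 bp to either side of the summit, and where that ran past the TSS, the transcribed bases were left out. Capitals mark the 7-letter word GGGCGTA on either strand and, where they reach 8 letters, the longest inverted copies across the summit. The stretches are chr3L:19590525-19590716 (CG14100, minus strand), chrX:2703853-2703993 (Ugalt, minus strand), chr2L:13835354-13835554 (CenG1A, plus strand), chr3R:15229423-15229623 (Art3, minus strand) and chr3R:26714270-26714470 (amon, minus strand).
CG14100: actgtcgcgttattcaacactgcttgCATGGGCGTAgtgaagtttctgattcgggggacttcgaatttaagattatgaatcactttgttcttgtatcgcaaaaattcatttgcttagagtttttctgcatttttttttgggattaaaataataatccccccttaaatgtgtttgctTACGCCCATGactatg
Ugalt: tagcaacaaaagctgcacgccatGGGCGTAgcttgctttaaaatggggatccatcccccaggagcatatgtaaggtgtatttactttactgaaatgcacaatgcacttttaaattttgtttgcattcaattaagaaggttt
CenG1A: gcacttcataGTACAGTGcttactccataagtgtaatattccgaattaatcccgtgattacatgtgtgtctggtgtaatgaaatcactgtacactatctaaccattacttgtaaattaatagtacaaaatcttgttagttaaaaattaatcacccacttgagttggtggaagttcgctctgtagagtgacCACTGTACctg
Art3: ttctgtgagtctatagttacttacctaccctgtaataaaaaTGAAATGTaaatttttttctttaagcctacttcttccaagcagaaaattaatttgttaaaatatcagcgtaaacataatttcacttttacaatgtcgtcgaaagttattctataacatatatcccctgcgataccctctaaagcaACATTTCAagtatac
amon: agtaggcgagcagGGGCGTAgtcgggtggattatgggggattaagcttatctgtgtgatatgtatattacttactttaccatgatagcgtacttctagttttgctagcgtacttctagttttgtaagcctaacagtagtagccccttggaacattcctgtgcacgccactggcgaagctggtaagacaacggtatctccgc

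The peak at CG14100 (FBgn0036889) was the strongest of every list, with signals of 2915 in the thresholded set, 872 in replicate 1 and 2048 in replicate 2. Signal is the strength the authors' peak caller gave to a peak. Its scale is not stated, so it orders and describes peaks within a list, and its size is not compared between lists. The gene spans 1453 bp (3L, 19589072 to 19590524, minus strand), and the summit at 19590616 lay 92 bp upstream of its single TSS. No other candidate of any list lay inside the gene or within 2000 bp of its TSS.

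At Ugalt (FBgn0024994; X, 2701124 to 2703852, minus strand) the signals were 2506 in the thresholded set, 581 in replicate 1 and 1935 in replicate 2. These placed the peak at rank 3 of 2790, rank 5 of 30000 and rank 2 of 30000. The summit at 2703893 was the closest of the 9 to a TSS, 41 bp upstream of one and 148 bp upstream of the other that the gene uses. Ugalt and CG14100 stood apart from the other 7 genes in the thresholded set, where the next gene, CenG1A, had 1701.

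CenG1A (FBgn0028509; 2L, 13835564 to 13898712, plus strand) had signals of 1701, 312 and 1387 in the thresholded, replicate 1 and replicate 2 lists. It ranked 7 in the thresholded set and 6 in replicate 2, and 36 in replicate 1. CG1888 (FBgn0033421; 2R, 9541947 to 9548135, minus strand) had signals of 1617, 311 and 1317 and ranks of 10, 38 and 8. Both genes were thus placed lower by replicate 1 than by replicate 2. Art3 (FBgn0038306; 3R, 15227605 to 15229408, minus strand) showed the opposite order, with signals of 1498, 522 and 980 and ranks of 14 in the thresholded set, 8 in replicate 1 and 20 in replicate 2.

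The peak of px (FBgn0003175; 2R, 22494297 to 22562065, minus strand) had signals of 1458, 468 and 991, with ranks of 16, 12 and 18. PNPase (FBgn0039846; 3R, 31401560 to 31405452, minus strand) had 1427, 336 and 1093, with ranks of 18, 31 and 13. Thus px, like Art3, ranked higher in replicate 1, and PNPase in replicate 2. Pdrg1 (FBgn0033467; 2R, 9959119 to 9959732, minus strand) had 1352, 354 and 999, with ranks of 21, 29 and 17. amon (FBgn0023179; 3R, 26697697 to 26714159, minus strand) had 1356, 208 and 1135. Its ranks were 20 in the thresholded set, 11 in replicate 2 and just outside the first 100 in replicate 1, the widest gap between the replicates among the 9.

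**Figure D1:**
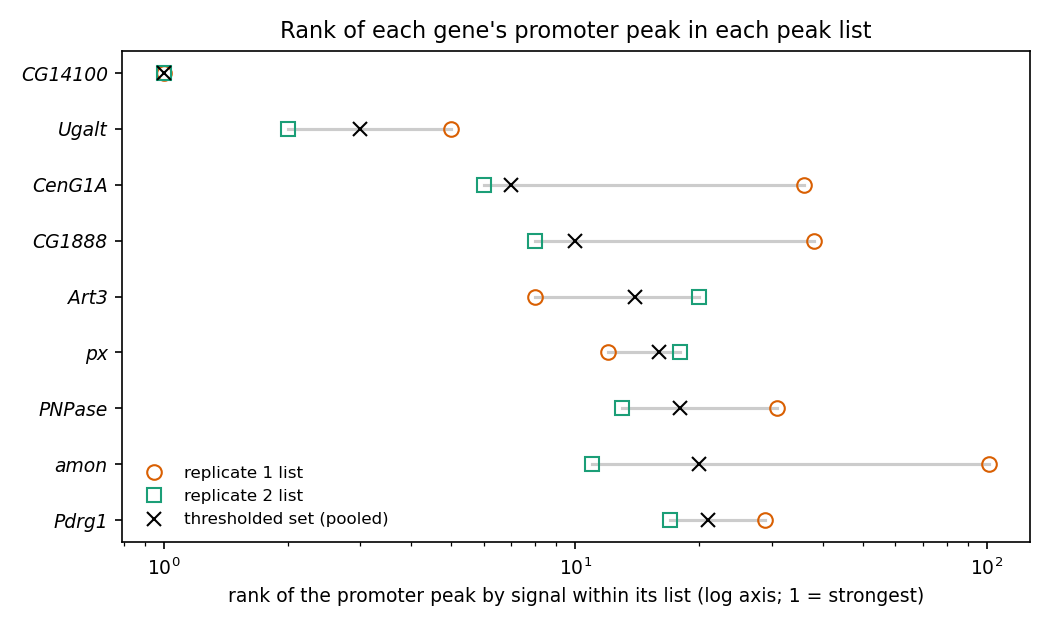
Rank of the strongest promoter peak of each of the 9 genes (rows), on a log axis where 1 is the strongest, in the replicate 1 list (circles), the replicate 2 list (squares) and the thresholded set made from both (crosses). CG14100 is at rank 1 in all of them, and the 2 replicates are farthest apart at amon (rank 11 in replicate 2 and just past 100 in replicate 1).

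Over the 9 genes, ranks in replicate 1 ran from 1 at CG14100 to that of amon with a median of 29.0, and in replicate 2 from 1 to 20 with a median of 11. The 16 other protein-coding genes among the 25 with the strongest promoter peaks ran from 3 to 109 (median 26.5) in replicate 1 and from 9 to 48 (median 27.0) in replicate 2. By the median, the 9 ranked higher in replicate 2 only, and in replicate 1 the medians were close. Most of these 16 had a lower signal in the thresholded set than the 9, which were chosen by that signal. The part of this choice in the replicate 2 difference was not tested. When the order of protein-coding promoters was rebuilt from the peaks of 1 replicate, the 9 genes were all among the first 25 in replicate 2, and 7 were in replicate 1. The 2 that were not were amon, which came 66th, and Pdrg1. The replicate 1 summit of Pdrg1 lay nearer to the TSS of its neighbour Pal1, which took place 17 in that order.

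The list of names has no sharp edge. Pdrg1, the weakest of the 9, was 13th in the order of protein-coding promoters. Just below it came CG9147 (signal 1318), Atf3 (1278) and Alg3 (1266). Above it, 4 genes outside the list also had peaks, namely ph-p (1668) of the Polycomb group, mRpL41 (1656), which encodes a protein of the mitochondrial ribosome, eIF6 (1558), a factor of ribosome assembly, and Chro (1453), a chromosomal protein.

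The replicates placed these summits close together. The distance between the replicate 1 and replicate 2 summits was 0 bp at PNPase, 2 bp at CG14100, 5 bp at Ugalt, and 7 bp at each of CenG1A, Art3 and px. It was 11 bp at amon, 17 bp at Pdrg1 and 18 bp at CG1888. All 9 were thus within 20 bp, compared with 40.7% of the 1302 thresholded promoter summits that had a candidate within 200 bp in both replicates, where the median was 28.0 bp. A candidate within 200 bp was present at 9 of the 9 genes in each replicate, compared with 94.6% of thresholded promoter summits in replicate 1 and 99.6% in replicate 2. The 9 are also the stronger peaks, and the part of signal in this closeness was not tested.

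Their peak intervals were also narrow. The pooled list has a commonest width of 364 bp, and the 9 intervals ran from 300 bp at amon to 353 bp at Ugalt, all below it, compared with 29.1% of the 1382 thresholded promoter summits. The weaker pooled candidates of these genes all had the width of 364 bp, and the part of signal in the narrowness was not tested. The deposited −log10 q-value was at its ceiling of 3.57 for all 9 genes, as for 1870 of the 2790 thresholded peaks, and does not order them.

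Positions were mostly just upstream of a TSS. In 8 of the 9 genes the summit lay upstream of the nearest own TSS, compared with 77.4% of thresholded promoter summits. Distances ran from 41 bp at Ugalt to 228 bp at CG1888 with a median of 115 bp, and the median of all thresholded promoter summits was 113 bp. Art3, CenG1A, Pdrg1 and amon lay between these, at 115, 110, 167 and 211 bp upstream.

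In CG1888, px and PNPase the marked start was an internal one, and the summit lay inside the gene's own span. This placing is not rare, since 44.9% of thresholded promoter summits lay inside the span of the gene with the nearest TSS. At px the summit (22514304) lay in an intron, 205 bp upstream of a TSS used by 1 of the 6 annotated transcripts. The other 5 transcripts start 32254 bp (1 transcript) and 47761 bp (4 transcripts) upstream of the summit. The px summit was therefore far from every start but one. At CG1888 the summit (9547186) was 228 bp upstream of the TSS of 2 transcripts and 949 bp inside the other 2, in an untranslated or non-coding exon of those. PNPase has 3 TSSs, and its summit (31404661) lay between them, 93 bp upstream of one, 79 bp downstream of the next and 791 bp downstream of the third. CenG1A had its summit at the most upstream of 3 TSSs, 110 bp from it and 43503 bp and 58748 bp from the others. Peaks do not show which transcripts were made in these embryos.

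Divergent neighbours shared some of these promoters. A TSS of another gene lay within 500 bp of the summit at 3 of the 9 genes, compared with 38.6% of thresholded promoter summits. mRpS10, which encodes a protein of the small mitochondrial ribosomal subunit, starts 142 bp from the Art3 summit on the opposite strand, so the summit sat between TSSs 257 bp apart. Another gene of that subunit, mRpS23, starts 382 bp from the CenG1A summit and also runs away from it. Pal1, an enzyme of peptide amidation, starts 179 bp from the Pdrg1 summit, and other transcripts of Pal1 reach across that summit (9959549 to 9963853, plus strand). At these 3 sites, the peak cannot be assigned to 1 gene of the pair.

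Beyond 500 bp, the next starts were those of Gprk2 (a kinase of G protein-coupled receptors) at 584 bp from the PNPase summit and eIF2Bbeta (a subunit of a translation initiation factor) at 678 bp from that of Ugalt. Mef2, which encodes a transcription factor of muscle, starts 1041 bp from the Pdrg1 summit, and CG34316 and the antisense RNA gene asRNA:CR43471 start 1062 bp and 1980 bp from that of Art3. Around CG14100, CG1888, px and amon, no start of another gene lay within 2000 bp. None of the 9 summits (0 of 9) had an annotated transposable element within 100 bp, and 0.217% of thresholded promoter summits had one.

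**Figure D2:**
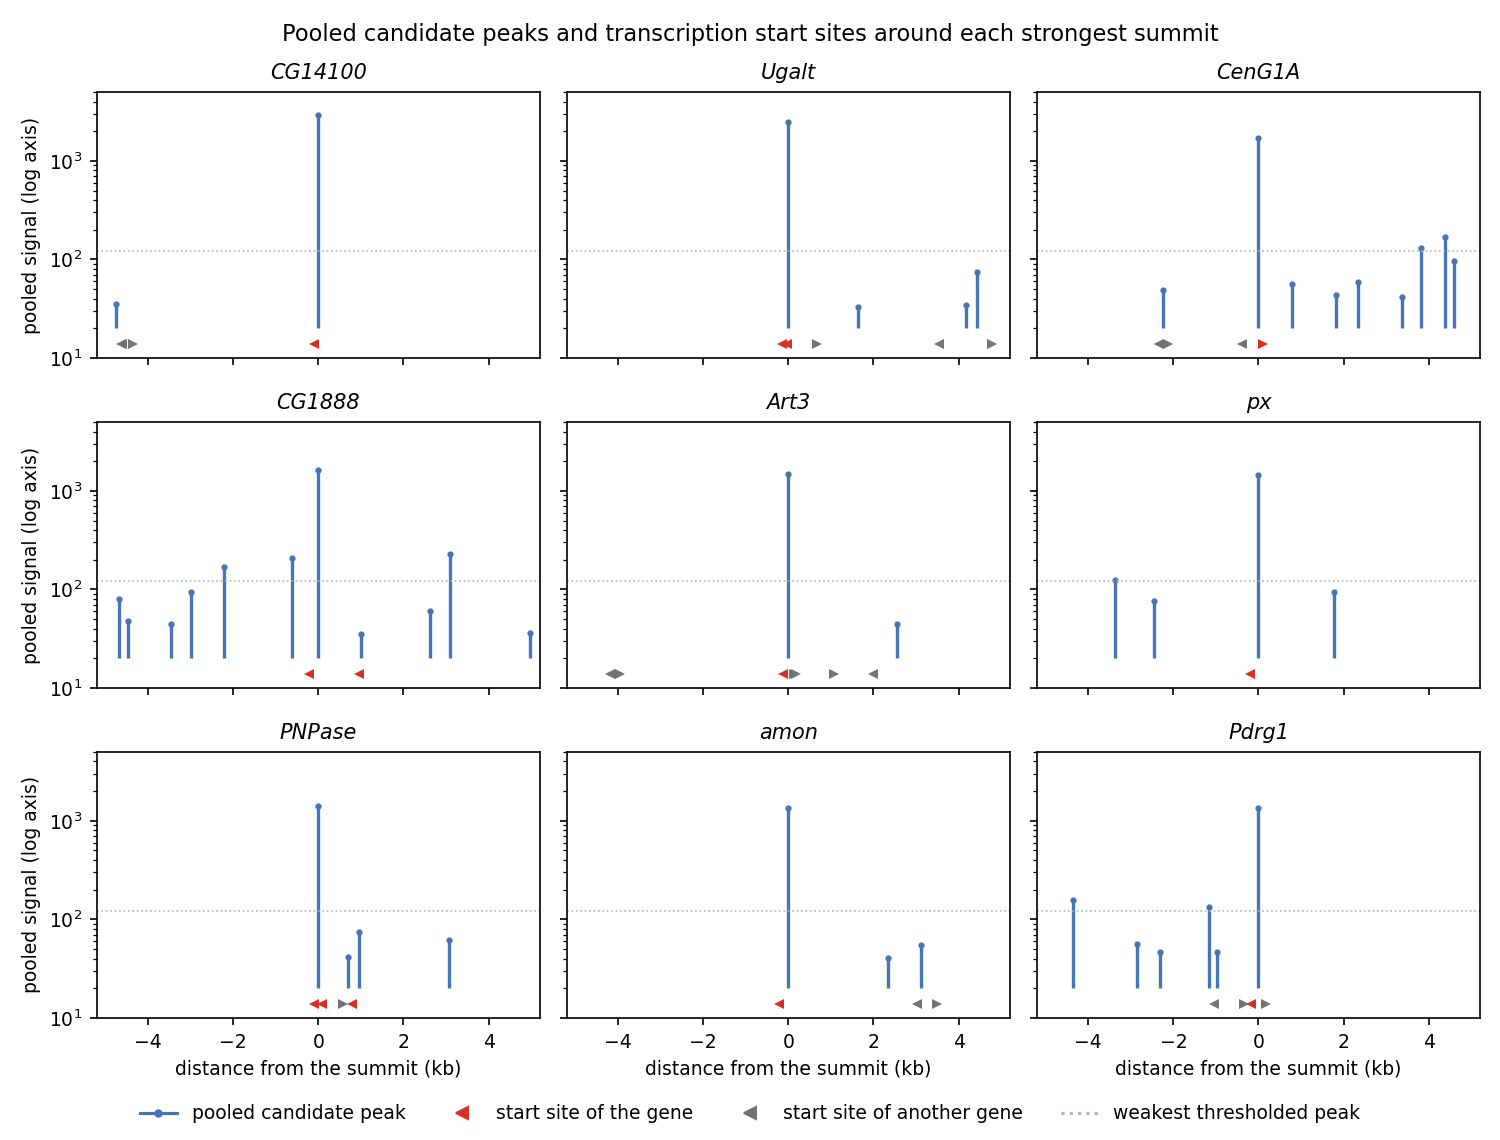
Pooled candidate peaks (blue stems, deposited signal on a log axis, stems drawn from an arbitrary base) within 5 kb of the strongest summit of each gene, with TSSs of the gene in red and of other genes in grey, pointing in the direction of transcription. The dotted line is the signal of the weakest thresholded peak (121), and at each gene a single peak stands well above the others.

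Each strongest peak stood alone in height. Counting pooled candidates inside the gene or within 2000 bp of its TSSs, the next strongest had a signal of 32.8 at Ugalt, 48.1 at amon, 74.6 at PNPase and 124 at px. It had 133 at Pdrg1, 173 at CenG1A and 207 at CG1888, and CG14100 and Art3 had no second candidate. Within 2000 bp of the summit, no other pooled candidate lay at 3 of the 9 genes (CG14100, Art3 and amon), compared with 23.4% of thresholded promoter summits. The gap to the strongest follows in part from the signal that chose the genes.

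The weaker candidates were spread over the 2 long genes. CenG1A, with a span of 63149 bp, had 29 pooled candidates in reach, 20 in replicate 1 and 29 in replicate 2. px, with a span of 67769 bp, had 32 pooled, 34 in replicate 1 and 37 in replicate 2. Inside the span this came to 4.43 pooled candidates per 10 kb in CenG1A and 4.57 in px, above 88.9% and 91.2% of the 307 protein-coding genes of at least 50 kb, whose median was 1.82. Their order differed between replicates for CenG1A, whose density exceeded that of 68.4% of long genes in replicate 1 and 89.6% in replicate 2. For px the shares were 90.9% and 96.4%. The px counts inside the span include its strongest peak in each list.

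Besides the strongest peaks, the 9 genes had 74 pooled candidates in reach, of which 7 (9.46%) were in the thresholded set, compared with 9.30% of all pooled candidates. CenG1A had 3 more thresholded summits, all in introns, with signals of 131, 170 and 173 at 3825, 4391 and 46653 bp from the strongest. px had 1 more, with a signal of 124, in an intron 3367 bp away. Per length, CenG1A held more thresholded summits inside its span than 94.1% of the long genes, and px more than 86.3%, where the median was 0. The px value includes the strongest peak, by which the gene was chosen. That of CenG1A does not, because its strongest summit lies outside the span. The 2 others at CG1888 lay 612 bp and 2207 bp away with signals of 207 and 170. Pdrg1 had 1 other in reach, with a signal of 133, which lay 1165 bp away outside the gene. It was 998 bp from the Pdrg1 TSS but within 500 bp of that of Mef2. By the promoter window used here it is a promoter summit of Mef2, although it is counted among the 7. The remaining 5 genes had no thresholded summit besides the strongest. For PNPase, the weaker pooled candidates, with signals of 41.5 and 74.6, lay 104 bp and 168 bp from an own TSS, the most upstream. The weaker of these lay between that TSS and the start of Gprk2. The stronger lay upstream of that TSS and also within 500 bp of the start of Gprk2. Neither can be assigned to PNPase alone.

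Base composition changed sharply with distance from these summits. Within 50 bp the mean GC content of the 9 was 32.0% ± 4.57 (SD, n = 9), from 26.7% at Art3 to 39.6% at CG1888. Among the 1382 thresholded promoter summits it was 37.4% ± 10.2, and among the 6128 promoter candidates that overlapped no thresholded peak 44.1% ± 9.70. Beyond 100 and up to 250 bp from the summit, GC content was higher than within 50 bp at 9 of the 9 genes, compared with 62.7% of thresholded promoter summits. The difference ran from -4.06 percentage points at CG1888 to -29.0 at px, with a median of -10.3, and the median of all thresholded promoter summits was -4.31.

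The sequences at px and amon had the steepest change. At px, GC content was 28.7% within 50 bp and 57.7% beyond 100 bp, and at amon it was 37.6% and 60.3%. Over the full 100 bp on each side, the mean of the 9 was 38.1% ± 5.73 and that of all thresholded promoter summits 38.3% ± 7.64, so the narrow window and the wide one differ in what they show. The part of GC content in the signal of these peaks was not tested.

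**Figure D3:**
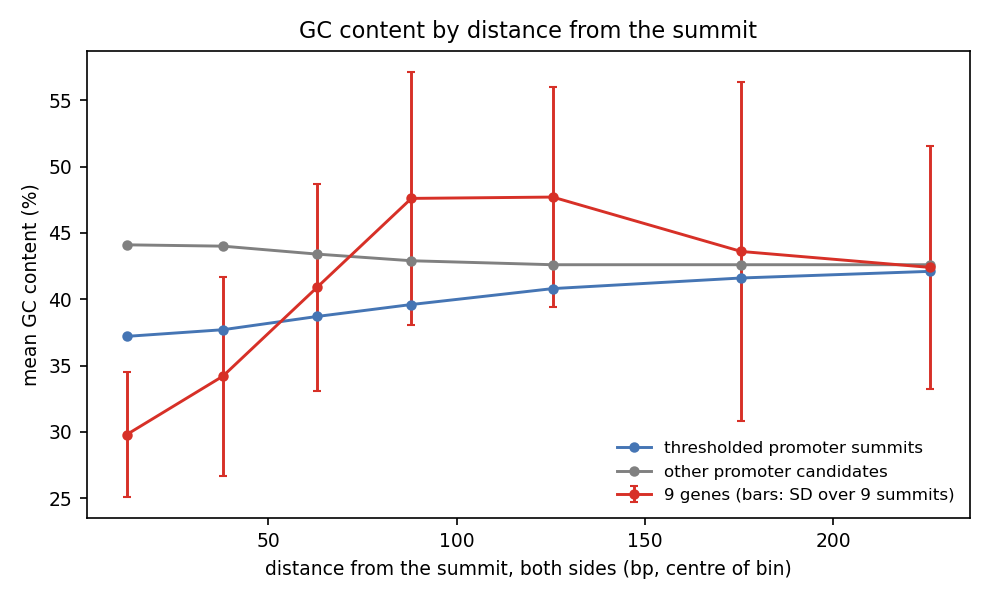
Mean GC content (%) by distance from the summit, both sides joined, for the 9 genes (red, bars are SD over 9 summits), all 1382 thresholded promoter summits (blue) and the 6128 other promoter candidates (grey). The 9 genes rise from 29.8% within 25 bp to 47.6% at 76 to 100 bp, while the thresholded promoter summits go from 37.2% to 39.6%.

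Matches to 10 known short sequences were counted on either strand within 100 bp of the summit, none of which contains another. TAATTA, a core that many homeodomains bind, was found at 2 of the 9 genes (CG1888 and PNPase) and at 14.9% of thresholded promoter summits. A second homeodomain core, TAATGA, was found at 1 gene (CenG1A) and at 12.2%. GAGAG, bound by GAGA factor, was found at px alone and at 24.2%. TCAGT, the start of the initiator element, was found at 4 genes (Ugalt, CG1888, PNPase and Pdrg1) and at 32.7%. An initiator lies at a TSS, whereas these windows are centred on summits and both strands were read, so a match need not be one. At CG1888 and Pdrg1 the summit lay 228 bp and 167 bp from the nearest own TSS, outside the window. Altogether 6 of the 9 genes held at least 1 of the 10, compared with 84.4% of thresholded promoter summits.

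The other 6 had no match at any of the 9 genes. These were TATAAA (the TATA box, at 31.3% of thresholded promoter summits), CANCNCTA (a Drosophila core promoter element, 15.3%) and CAGCTG (an E-box, 13.4%). TATCGATA, the site of the DNA replication-related element factor, was at 6.30%. GGTCACAC, part of the core promoter element Motif 1, was at 3.62%. CAGGTAG, the site of the early embryonic activator Zelda, was at 0.579%. With 9 sequences, an absence says only that these letters are not in these windows.

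A different sequence recurred. Of all 7-letter words within 100 bp of the 9 summits, strands joined, 1 was held by 5 genes, 1 by 4 genes and 32 by 3. The word GGGCGTA was the one held by 5 genes, namely CG14100, Ugalt, CG1888, px and amon. It was picked because it was the commonest here, so its count is no test. It occurred at 39 of 1382 thresholded promoter summits (2.82%), the 5 genes included, and at 62 of 6128 other promoter candidates (1.01%).

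Its matches shared a position and a direction. CG14100 held it on both sides, 79 bp and 68 bp from the summit. Ugalt had its match at 74 bp, CG1888 at 61 bp, amon at 84 bp and px at 95 bp. All 6 matches were thus between 50 and 100 bp from the summit, and each of them read toward it in the 5′ to 3′ direction. In the printed sequences of Ugalt and amon the word stands upstream of the summit, and in CG14100 it flanks the summit as GGGCGTA and its reverse complement.

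Peaks outside the 9 genes allow the word's placing to be described in sites that did not pick it. Among the 41 other pooled peaks ranked 1 to 50, the word was within 100 bp at 4 (9.76%), and among the 150 ranked 51 to 200 at 10 (6.67%). It was at 18 of 600 at ranks 201 to 800, at 23 of 1990 (1.16%) at ranks 801 to 2790 and at 357 of the 27210 candidates below (1.31%). Of matches 50 to 100 bp from the summit, 4 of 4, 9 of 10 and 9 of 11 read toward the summit in the first 3 ranges, and 7 of 12 in the fourth. Below the thresholded set it was 99 of 185, so direction was uneven among the strong peaks and near even among the weak ones. At Tcs5, CG5611, CG31145, CG8320 and Hpf1, which are the protein-coding promoters with the word that ranked next, it lay 68 to 97 bp from the summit and read toward it. These matches are among those already counted at ranks 1 to 50 and 51 to 200, and add nothing to those counts.

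**Figure D4:**
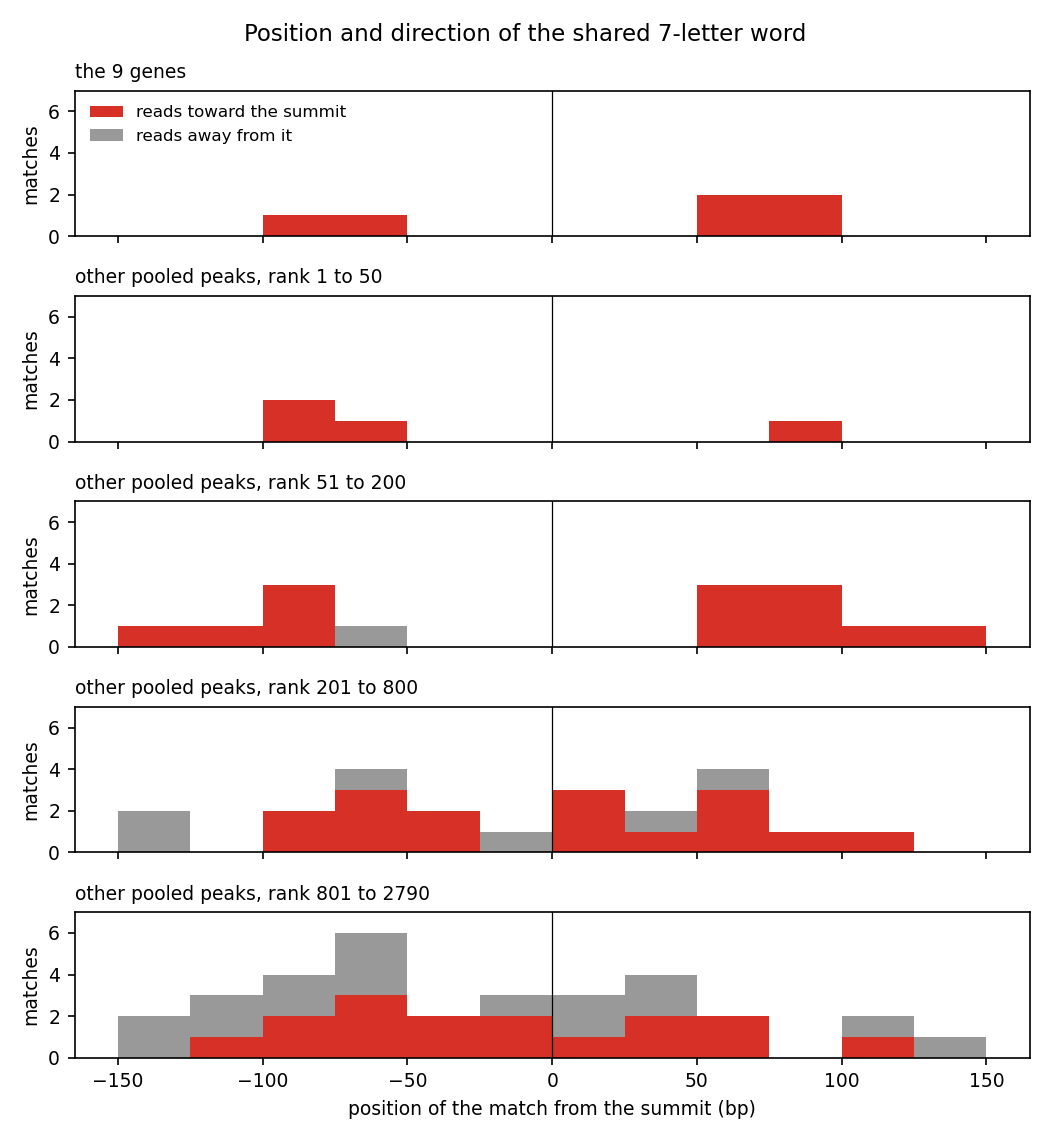
Position of each match of the shared 7-letter word from the summit (bp, bins of 25 bp, genome strand), with matches that read toward the summit in red and away from it in grey, for the 9 genes and for other pooled peaks in 4 ranges of rank. Matches at the 9 genes and at ranks 1 to 50 all lie 50 to 100 bp from the summit and read toward it. In the lower ranges some lie outside that band and both directions occur. Toward and away, there are 13 and 1 at ranks 51 to 200, 16 and 6 at ranks 201 to 800, and 16 and 16 at ranks 801 to 2790.

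Several summits lay inside inverted copies of a sequence. The longest run of letters 20 to 130 bp on one side whose reverse complement stood 20 to 130 bp on the other was 11 letters at px and 10 at CG14100, where it spells CATGGGCGTA. It was 8 letters at CenG1A (GTACAGTG), Art3 (TGAAATGT) and CG1888. Ugalt, PNPase and Pdrg1 had 7, and amon had 6. At 10 letters or more there were thus 2 of 9 genes, compared with 3.47% of thresholded promoter summits and 2.12% of other promoter candidates. At 8 or more there were 5 of 9, compared with 26.6% and 19.9%. The median was 8 letters in the 9 genes and 7 in both of the larger sets.

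The run at CG14100 contains the word GGGCGTA. Along the plus strand of the genome, its copies begin 85 bp to the left of the summit and 65 bp to its right. The printed sequence of this gene is the minus strand, where the sides are swapped. At CenG1A the run starts 90 bp from the summit on each side. A further copy, CACTGTAC, stands in the printed sequence within 20 bp of the summit, a stretch that the search left out. On the right side the run overlaps ACAGTGG, a word looked for after the runs had been seen. ACAGTGG was found at CenG1A alone of the 9 genes, 92 bp from the summit and reading toward it, and at 7.67% of thresholded promoter summits. Outside the 9 genes it was within 100 bp of 17.1% of the peaks ranked 1 to 50, 19.3% at ranks 51 to 200, 8.50% at ranks 201 to 800, 8.34% at ranks 801 to 2790 and 3.81% below. Its matches 50 to 100 bp from the summit read toward it in 5 of 5, 33 of 35, 39 of 43, 96 of 117 and 315 of 530 cases.

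The pathways of the 7 genes with a known role were then examined through 7 gene lists, chosen with earlier results of these data known. Of 89 names, 85 matched the annotation, and 24 of these had a thresholded summit within 500 bp of an own TSS. Pal1 was counted only through the peak it shares with Pdrg1. Without it and the 7 genes it was 16 of 77 (20.8%), beside 12.7% of all protein-coding genes. No list was tested.

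In neuropeptide processing, 3 of 8 other genes besides Pal1 had a thresholded summit. These were Fur1, a furin protease (signal 426), svr, a carboxypeptidase (382), and Pal2, a further enzyme of amidation (134), beside 1356 at amon. Prefoldin and related chaperone subunits held 5 of 12, among them the ATPase gene pont (247), Pih1D1 (234), mgr (231) and Pfdn6 (174), all far below Pdrg1.

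The lists around the other genes held fewer. Among genes of galactose metabolism and nucleotide sugar transport, 3 of 12 had a thresholded summit, namely senju (282), another Golgi transporter of UDP-galactose, Galk (145), galactokinase, and meigo (136). In mitochondrial RNA synthesis and decay, 2 of 11 had one, SLIRP2 (638) and SLIRP1 (234), which encode RNA-binding proteins. Of the Arf GTPases and their regulators it was 2 of 14, with Arl1 (494), a GTPase of the Golgi, and garz (306), an Arf exchange factor. By replicate 1 alone the Arf list counted 6 of 15 genes, CenG1A included, in place of 3. Of all 13945 protein-coding genes, 1804 had a promoter summit by replicate 1 alone, in place of 1776.

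Wing vein patterning had 1 of 11, net (216), a transcription factor gene. None of the 9 other arginine methyltransferase genes (0 of 9) had a thresholded summit at a promoter. In each of these lists, the gene that named it carried the highest signal, which follows from how the 9 were chosen.

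The genes whose promoter peaks were most alike over the thresholded, replicate 1 and replicate 2 lists were found among 1218 genes by distance in log2 signal, which treats the deposited signal as a ratio scale although no source states that it is one. CG14100 had no close partner, and the nearest was mRpL41 at a distance of 1.39. For Ugalt it was ph-p at 0.95. The other 7 had partners within 0.34, namely ph-p for Art3 (0.34), Chro for px (0.30) and PNPase (0.20), eIF6 for CenG1A (0.20) and CG1888 (0.10), Atf3 for amon (0.13) and CG9147 for Pdrg1 (0.09). Atf3 was at rank 89 in replicate 1 and 14 in replicate 2, and CG9147 at 28 and 22. Such likeness in the replicates is what the distance selects.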

How the data were processed

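ChIP-seq of GFP-tagged schlank was measured in 2 samples, grouped by their antibody field, and 4 deposited peak lists on assembly dm6 were used, per the labels. The thresholded set is named as the optimal IDR set by its label, and IDR is a measure of reproducibility between replicates. No order by reproducibility was used here, and all ranks are by signal. Thresholded and pooled ranks were the same down to a px peak at rank 2683 (signal 124). The weakest thresholded signal was 121, and a px candidate of 120 at pooled rank 2847 was outside the set. The set thus followed pooled signal at these peaks. Signal is the authors' own strength per peak, with no scale stated, and −log10 q-values are as deposited. Names and versions of the aligner and peak caller, and the IDR threshold, were not given in the sources used here. Control data were not used here.

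Summits were placed at the start of a peak plus its deposited offset. A promoter summit lay within 500 bp of an annotated TSS (Ensembl release 115, BDGP6.54), and replicate candidates were matched within 200 bp. Sequence came from NCBI Release 6, whose arms hold every interval. None is printed from arm 2R, which holds 3 of the 9 genes, nor at PNPase, whose summit lies in an exon.

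The 9 genes and the gene lists were chosen with earlier results of these data known. No test was run, because the design has 1 group. Named besides the 9 genes are all genes with a TSS within 2000 bp of a summit or spanning it, up to 4 others per list by signal, the neighbours in the order of signal and the gene most alike. Other genes holding the shared word were chosen with their values in view. The lookups were tested on simulated data. Alternatives were other windows, the stronger 50% of peaks and each replicate alone. Python 3.11.15, numpy 2.4.6, pandas 2.3.3 and matplotlib 3.10.9 were used.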

Additional observations from a re-analysis of the deposited data

How the results depend on the processing

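No paired analysis was possible because the labels give a single group. Of the values that answer a comparison, 38 kept within 1.5 times or 1 SD of the value reported and 2 moved. Many of the 38 are counts over the 9 genes that follow largely from their choice by signal. These are the genes with a promoter summit, with a replicate candidate or among the 25 strongest, so their stability says little. With a window of 1000 bp, 5 of the 9 summits had a TSS of another gene, in place of 3, and over 50 bp to each side mean GC content was 32.0%, in place of 38.1% over 100 bp. Without replicate 1 or replicate 2 in turn, 9 and 9 genes kept a promoter summit, 8 and 8 summits lay upstream, 9 and 7 genes were among the 25 strongest, 6 to 7 held a short sequence, 22 to 27 listed genes had a peak, and mean GC content was 37.8% to 38.1%. Of single lists and sequences, 82 values stayed and 14 moved. The word GGGCGTA, looked for after the data were seen, was within 50 bp at 0 of 9 genes, since its matches lie farther out. Read depth is unknown and limits every statement on weak candidates.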
